A study of Homo sapiens with 19 samples.

Results

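The 10 genes described here, DDIT3, ASNS, HSPA5, XBP1, ATF4, ATF3, TRIB3, CHAC1, HERPUD1 and DNAJB9, belong to the unfolded protein response and to the ATF4 response. They were taken as a list of symbols, chosen with earlier results of these data known, and found through the RefSeq identifiers of the RNA table. All 10 were among its 24198 genes, and all 10 passed the filter of a mean of 1 FPKM or more that left 11671 genes for comparison. DNAJB9 passed it through its level after EP400 siRNA, since it stood below 1 FPKM after mock siRNA. FPKM scale the fragments of a transcript for its length and for the size of the library. Loci and peaks are given in hg19, the build of the files. The cells were U2OS, an established human osteosarcoma line, in every group. One group received siRNA against EP400, a chromatin remodelling ATPase, and its control a mock siRNA against GFP, both harvested 72 hr after transfection. Each of these groups had 1 library of RNA and 1 of chromatin immunoprecipitation (ChIP) for RNA polymerase II (Pol II), for MED26, a subunit of Mediator, and for H3.3 and H2AZ, which are variants of histones H3 and H2A. H3K18ac and H3K4me1, histone marks of active regulatory DNA, had 1 library after mock siRNA. EP400 ChIP had 3 immunoprecipitations, deposited as 1 peak list, whose labels name no siRNA. With 1 library per condition no difference has a replicate check, and no test was made.

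The unfolded protein response is set off when unfolded proteins build up in the endoplasmic reticulum (ER). The sensor IRE1 splices XBP1 mRNA, ATF6 is cut to release a transcription factor, and the kinase PERK phosphorylates eIF2-alpha, which lowers translation in general and raises that of ATF4. Other eIF2-alpha kinases answer to lack of amino acids, double-stranded RNA or lack of heme and also act through ATF4, so the ATF4 branch is also called the integrated stress response. Activation of XBP1 and ATF4 takes place largely by splicing and translation, which RNA levels of these genes show only in part.

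EP400 RNA, the target, stood at 2.28 FPKM after EP400 siRNA and at 10.04 FPKM after mock siRNA, 22.8% of the mock level. The authors' confidence limits, 0.162 to 4.41 FPKM and 0.165 to 19.9 FPKM, overlapped. No read totals came with the FPKM, so the depth is unknown, and a change of RNA per cell cannot be told apart from a change in the share of cells that carry it. The FPKM of rows of 200 nt or more summed to 366796 after EP400 siRNA and to 626424 after mock siRNA. Bringing both sums to the same total (TPM) added 0.68 to the log2 ratio of the median gene, so values on that scale are given where they change a count. The log2 ratio of EP400 was -1.75 as deposited and -1.24 on equal sums. Of 12 mesenchymal and bone marker genes, 9 were at 1 FPKM or more after EP400 siRNA and 10 after mock siRNA, and TWIST1 was listed at 0 in both. Of the 10 that passed the filter, 3 were at least 2-fold higher (CD44, FN1 and ALPL) and 2 lower (COL1A1, at 60.8 and 375.8 FPKM, and THY1, at 68.1 and 188 FPKM). VIM, the most abundant, stood at 1132 and 618 FPKM, and the list summed to 1617 and 1469.9 FPKM. Of 8 epithelial markers 1 reached 1 FPKM after EP400 siRNA and 2 after mock siRNA, and their summed level was 12.8 FPKM and 71.0 FPKM, most of it CLDN4 at 10.9 and 63.4 FPKM. Blood cell markers summed to 3.64 FPKM and 1.23 FPKM over 8 genes, with CD3E and HBB among those listed at 0 in both. Most of the sum after EP400 siRNA was LCP1, at 3.07 FPKM against 0.320 FPKM after mock siRNA, while CD14, CD79A and SPI1 were below 1 FPKM in both and lower after EP400 siRNA. The part of other cell types in the results below was not tested.

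All 10 genes had more RNA after EP400 siRNA than after mock siRNA, compared with 42.7% of all tested genes. At least 2-fold higher were 6 of the 10 (DDIT3, ASNS, HSPA5, XBP1, HERPUD1 and ATF4), and 0 were at least 2-fold lower, on the log2 ratio of FPKM + 1. Over all tested genes 6.11% passed 2-fold upwards and 22.9% downwards. The median log2 ratio of the 10 genes was 1.04, and that of all tested genes -0.20. On median centring 8 of the 10 were at least 2-fold higher and 0 lower, beside 10.8% and 15.6% of all tested genes. On equal sums (TPM) the counts were 10 and 0, beside 31.5% and 5.97%. Centring within groups of local gene density gave 8 and 0, beside 8.83% and 11%. Confidence limits were given by the authors per transcript and added up per gene; they overlapped between the conditions for every one of the 10 genes, and were apart for 25 of the 11671 tested genes (0.214%). For 6 of the 10 the lower limit was 0 in both libraries, so the size of each difference is poorly bounded.

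**Figure D1:**
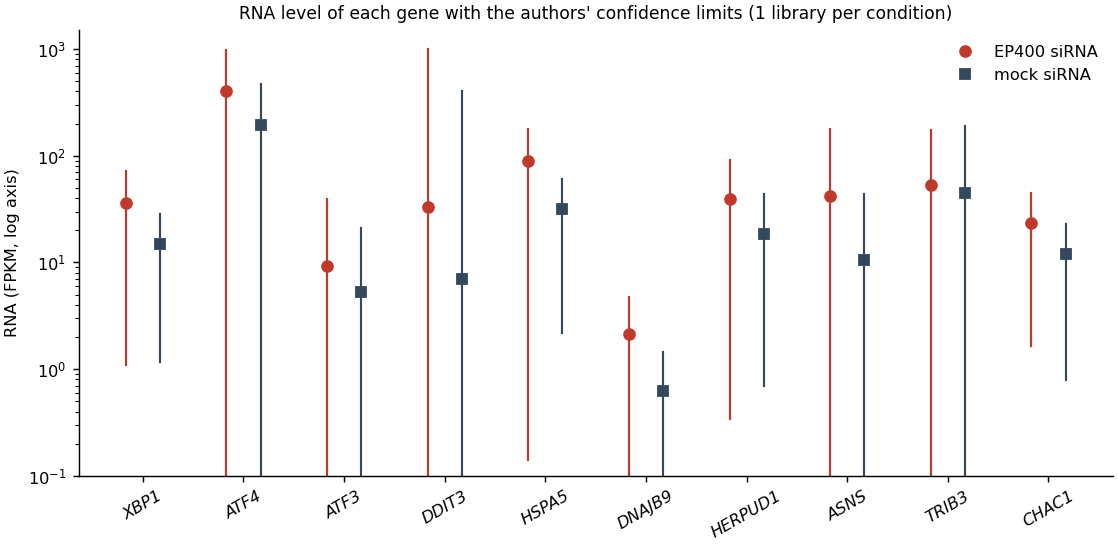
RNA level in FPKM on a log axis for each gene, with EP400 siRNA as red circles left of mock siRNA as dark squares. Vertical lines span the authors' lower and upper confidence limits per transcript, added up per gene. They run off the lower edge where the lower limit is below 0.1 FPKM. The EP400 siRNA point lies above the mock point for all 10 genes, while the limits of each pair overlap.

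The transcription factors came in at very different levels. ATF4 (chr22:39916564-39918691, plus strand) is the bZIP factor whose translation the eIF2-alpha kinases raise. It had 403 FPKM after EP400 siRNA (limits 0 to 978) and 196 FPKM after mock siRNA (0 to 469.6). This is a log2 ratio of 1.04, and 94.4% of tested genes had a lower one. Nearly all of it was assigned to 1 of 2 listed transcripts, with 400.1 FPKM and 193 FPKM. XBP1 (chr22:29190548-29196560, minus strand), the bZIP factor activated by IRE1, had 36.3 FPKM after EP400 siRNA (1.09 to 71.6) and 14.9 FPKM after mock siRNA (1.17 to 28.5), a log2 ratio of 1.24. All of this was assigned to the transcript of 1820 nt, the unspliced form. The spliced form, which is 26 nt shorter and codes for the active factor, was listed at 0 in both libraries with both limits at 0. As the rows differ by so few bases, the listing was not read as a measure of splicing.

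DDIT3 (chr12:57881736-57914300, minus strand), also called CHOP, is a factor of late ER stress that ATF4 induces. It had 32.8 FPKM after EP400 siRNA (0 to 992) and 6.97 FPKM after mock siRNA (0 to 408), the highest ratio of the 10 at 4.71 in linear terms (log2 ratio 2.09). Among the tested genes it stood at rank 85 from the top. The main transcript carried 23.3 FPKM and 5.68 FPKM. DDIT3 shares its locus in the table with MARS1, the methionyl-tRNA synthetase gene, which stood at 128.9 FPKM and 82.5 FPKM. ATF3 (chr1:212738676-212794119, plus strand) is a further stress-induced bZIP factor. It had 9.18 FPKM after EP400 siRNA (0 to 39.6) and 5.24 FPKM after mock siRNA (0 to 20.9), a log2 ratio of 0.71 that passed 2-fold on equal sums alone (1.48). Its transcripts were assigned differently in the libraries. The transcript of 2075 nt held 0.00657% of ATF3 after EP400 siRNA and 64.4% after mock siRNA, while that of 1922 nt held 49.4% and 22.3%. The limits of the 2075 nt transcript overlapped between the libraries, at 0 to 0.0641 FPKM and 0 to 9.57 FPKM.

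The promoter of XBP1 holds a match to the ER stress response element that ATF6 binds with NF-Y, shown here because HSPA5 shares it. The letters searched for were CCAAT and CCACG with 9 bases between them, and the window was the 250 bases before the annotated start in RefSeq (chr22:28800570-28800819, minus strand, GRCh38.p14), on both strands, with the match in capitals:
XBP1: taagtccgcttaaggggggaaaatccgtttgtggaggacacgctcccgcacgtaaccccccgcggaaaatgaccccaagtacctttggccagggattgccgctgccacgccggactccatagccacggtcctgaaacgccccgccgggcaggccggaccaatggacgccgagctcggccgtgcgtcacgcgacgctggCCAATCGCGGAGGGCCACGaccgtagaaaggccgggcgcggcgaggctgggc

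The ER chaperone and degradation genes also covered a wide range of levels. HSPA5 (chr9:127997127-128003666, minus strand) codes for BiP, the main HSP70 chaperone of the ER and the repressor of its stress sensors. It had 89.8 FPKM after EP400 siRNA (0.142 to 179) and 31.5 FPKM after mock siRNA (2.19 to 60.9), a log2 ratio of 1.48 from its only transcript. HERPUD1 (chr16:56966002-56977793, plus strand) codes for an ER membrane protein that takes part in ER-associated degradation. It had 39.4 FPKM (0.340 to 91.2) after EP400 siRNA and 18.6 FPKM (0.698 to 43.96) after mock siRNA, a log2 ratio of 1.04. DNAJB9 (chr7:108202588-108215294, plus strand), which codes for the BiP co-chaperone ERdj4, was the lowest of the 10. It had 2.14 FPKM after EP400 siRNA (0 to 4.77) and 0.628 FPKM after mock siRNA (0 to 1.44). This is 3.41-fold in linear terms, which the pseudocount of 1 brought to a log2 ratio of 0.95, against 1.62 with a pseudocount of 0.1. On centring by gene density it was the lowest of the 10, at 0.65.

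HSPA5 and HERPUD1 hold matches to ER stress elements of 2 kinds before their starts. HSPA5 (chr9:125241344-125241593, minus strand, GRCh38.p14) holds the same letters as XBP1. HERPUD1 (chr16:56931892-56932141, plus strand, GRCh38.p14) holds the related ATTGG and CCACG with 1 base between them, and also TGATGNAA, the core of the amino acid response element that ATF4 binds with C/EBP factors, here on the opposite strand. Capitals mark the matches:
HSPA5: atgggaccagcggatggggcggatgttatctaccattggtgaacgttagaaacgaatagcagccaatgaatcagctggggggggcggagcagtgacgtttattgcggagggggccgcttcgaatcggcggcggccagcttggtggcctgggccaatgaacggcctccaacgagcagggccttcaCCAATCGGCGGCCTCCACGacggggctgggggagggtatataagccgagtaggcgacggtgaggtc
HERPUD1: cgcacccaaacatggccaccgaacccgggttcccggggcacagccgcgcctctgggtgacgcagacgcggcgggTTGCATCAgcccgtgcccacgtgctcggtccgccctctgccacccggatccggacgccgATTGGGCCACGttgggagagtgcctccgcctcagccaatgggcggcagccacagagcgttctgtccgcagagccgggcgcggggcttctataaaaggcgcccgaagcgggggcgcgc

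The ATF4 targets of the list were spread over a wide range of ratios. ASNS (chr7:97481429-97501854, minus strand), which codes for asparagine synthetase, had 41.7 FPKM after EP400 siRNA (0 to 177) and 10.6 FPKM after mock siRNA (0 to 43.4), a log2 ratio of 1.88 above that of 99.02% of tested genes. All 4 of its transcripts with FPKM above 0 in both libraries were higher after EP400 siRNA, by 2.14-fold to 4.77-fold. CHAC1 (chr15:41245636-41248717, plus strand), whose product breaks down glutathione, had 23.4 FPKM after EP400 siRNA (1.65 to 45.1) and 11.9 FPKM after mock siRNA (0.792 to 23.1), a log2 ratio of 0.91. TRIB3 (chr20:361273-378203, plus strand), a pseudokinase gene induced by ATF4 and CHOP, had 52.6 FPKM after EP400 siRNA (0 to 176) and 44.6 FPKM after mock siRNA (0 to 192). Its log2 ratio of 0.23 was the smallest of the 10, and 66.1% of tested genes had a lower one. It was 1.0003 on equal sums and 1.02 on centring by gene density.

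ASNS (chr7:97872409-97872658, minus strand, GRCh38.p14) and CHAC1 (chr15:40953221-40953470, plus strand, GRCh38.p14) hold the core TGATGNAA, marked in capitals and in CHAC1 on the opposite strand:
ASNS: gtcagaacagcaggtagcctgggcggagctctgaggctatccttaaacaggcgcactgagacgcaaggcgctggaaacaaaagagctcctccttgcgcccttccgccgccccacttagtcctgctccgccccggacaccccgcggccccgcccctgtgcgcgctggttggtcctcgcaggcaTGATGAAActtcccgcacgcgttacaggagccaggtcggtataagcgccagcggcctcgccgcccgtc
CHAC1: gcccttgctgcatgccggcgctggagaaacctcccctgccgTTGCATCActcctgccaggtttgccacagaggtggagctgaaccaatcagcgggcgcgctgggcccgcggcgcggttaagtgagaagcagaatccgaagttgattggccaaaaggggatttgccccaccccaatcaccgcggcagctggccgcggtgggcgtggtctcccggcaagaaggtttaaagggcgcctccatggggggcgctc

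Across the promoters of the 10 genes, all of which were in the RefSeq table, the element of HSPA5 and XBP1 was found in these 2 genes and in 0.0916% of 27305 genes. The element of HERPUD1 was found in 1 of the 10 and in 0.0659% of genes. The core TGATGNAA was found in ASNS, ATF3, CHAC1 and HERPUD1 and in 3.89% of genes. In ATF3 the match lies before the first of 2 annotated starts. The widest Pol II peak of ATF3 lay 42.7 kb into its locus in both conditions. The match was thus not shown to be at the start in use. TGACGTGG, the core of an XBP1 and ATF6 site, and the palindrome TGACGTCA were found in 0 of the 10 genes, and in 0.780% and 2.03% of all genes. Some genes have more than 1 annotated start, and the window before each was searched. The second windows of ASNS, XBP1 and ATF3 held no match. The matches in HERPUD1 do not overlap each other. A match describes letters only, and a missing match says only that these letters are not in the 250 bases before the annotated starts. The letters were chosen as known elements of these responses, and whether they are more frequent in the 10 genes was not tested.

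Ratios differed with level in these libraries. Over all tested genes the median log2 ratio ran from 0.20 in the lowest quintile of mean FPKM to -0.93 in the highest, where 45.2% of genes were at least 2-fold lower. Of the 10 genes 5 lay in the fourth quintile (median -0.56) and 3 in the highest. Each of the 10 lay above the median of its own quintile, by 0.75 for DNAJB9 to 2.65 for DDIT3. HSPA5 lay 2.41, ATF4 1.97 and TRIB3 1.16 above the median of the highest quintile.

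**Figure D2:**
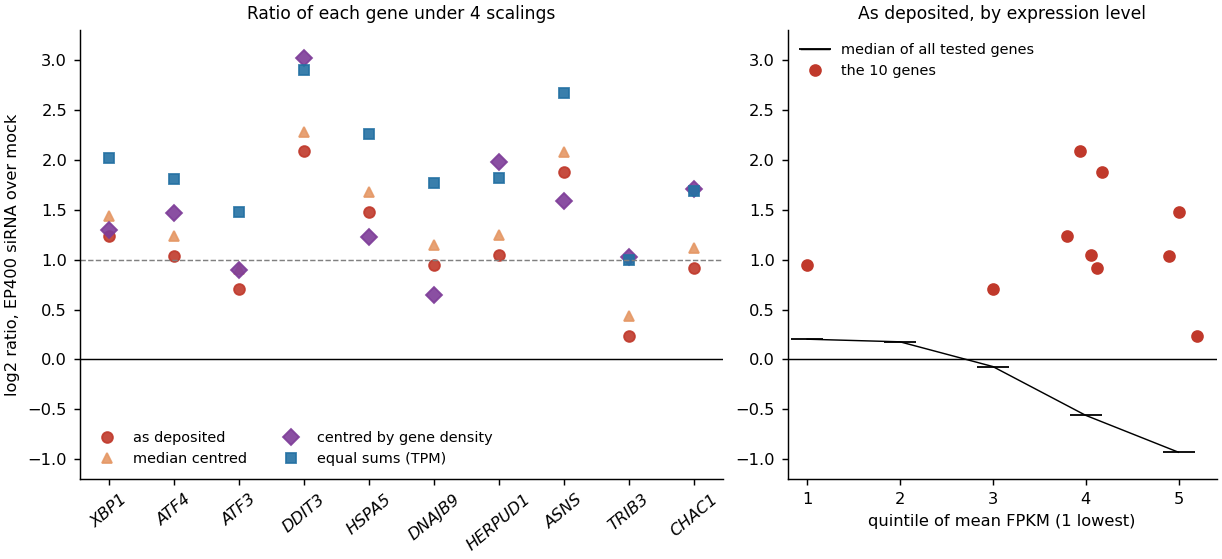
Left, the log2 ratio (EP400 siRNA over mock) of each gene under 4 scalings, with a dashed line at 2-fold; right, the ratio as deposited against the quintile of mean FPKM, with the median of all tested genes in each quintile as a black line. All 10 genes lie above 0 under the 4 scalings and above the median of their quintile, and TRIB3 has the smallest ratio as deposited, at 0.23.

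The rest of the pathway was more mixed. Both the 10 genes and these lists were chosen with earlier results of these data known. The contrast between them is therefore a description and was not tested. Of 100 other genes in 6 lists, 90 passed the filter, with a median log2 ratio of 0.42; 17 passed 2-fold upwards and 7 downwards, beside 6.11% and 22.9% of all tested genes. On median centring the counts were 26 and 3, beside 10.8% and 15.6%. On equal sums they were 51 and 1, beside 31.5% and 5.97%, and on centring by gene density 21 and 3, beside 8.83% and 11%. The shares as deposited and on equal sums are the background of each list that follows. The aminoacyl-tRNA synthetase genes, which charge tRNAs and many of which ATF4 controls, were the list with the median nearest to that of the 10 genes, at 1.09. Among its 12 genes 7 passed 2-fold upwards and 0 downwards (11 and 0 on equal sums). WARS1 had 41.6 FPKM after EP400 siRNA and 13.6 FPKM after mock siRNA, TARS1 46.7 and 15.6 FPKM, CARS1 44.2 and 15.2 FPKM, and GARS1 98.8 and 36.5 FPKM.

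Genes of amino acid synthesis and transport numbered 16, of which 4 passed 2-fold upwards and 1 downwards (8 and 0 on equal sums); their median was 0.15. MTHFD2, of mitochondrial one-carbon metabolism, had a log2 ratio of 1.68, the cystine transporter gene SLC7A11 1.53, the glutamine transporter gene SLC38A2 1.40 and PSAT1, of serine synthesis, 1.16. SLC7A11 passed the filter through its level after EP400 siRNA, at 3.16 FPKM against 0.436 FPKM after mock siRNA. With a filter of 5 FPKM the counts of this list were 3 and 1 of 14. The signalling and stress targets of ATF4 numbered 17, of which 1 passed 2-fold upwards and 2 downwards (9 and 1 on equal sums); their median was 0.27. The upward count as deposited is near the 6.11% of all tested genes. There the tRNA exporter gene XPOT stood at 1.32 and VEGFA at 0.92. BBC3, which codes for the cell death factor PUMA and is also a p53 target, stood at -1.80, and ATF5 at -1.001, which turned to 0.03 on centring by gene density.

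The list of sensors and eIF2-alpha kinases also held genes that are neither, RTCB among them. In this list 3 of 10 passed 2-fold upwards and 1 downwards (7 and 0 on equal sums), and the median was 0.54. With a filter of 5 FPKM the counts were 1 and 1 of 6, and the median 0.36. Some genes of this list and the next passed the filter only through their level after EP400 siRNA. None of these was 2-fold higher as deposited, though each was on equal sums. EIF2AK2, which codes for the double-stranded RNA sensor PKR and is also an interferon-induced gene, had 5.34 FPKM after EP400 siRNA and 1.36 FPKM after mock siRNA, a log2 ratio of 1.42. RTCB, the ligase that joins spliced XBP1 mRNA, stood at 1.16 and ATF6 at 1.04, while ATF6B stood at -1.22. ER chaperones and folding enzymes numbered 17, of which 1 passed 2-fold upwards and 2 downwards (10 and 0 on equal sums); their median was 0.42. Here too the upward count as deposited is near that of all tested genes. The BiP co-chaperone gene DNAJB11 stood at 1.17, beside CRELD2 at -1.08, SDF2L1 at -1.01 and the disulfide isomerase gene P4HB at -0.98. CRELD2 and SDF2L1 are ER stress genes, and both stayed below 0 on equal sums (-0.32 and -0.24), as did P4HB (-0.21), which reached 0.05 on centring by gene density. Genes of ER-associated degradation and translocation numbered 18, of which 1 passed 2-fold upwards and 1 downwards (6 and 0 on equal sums). Their median was -0.07, and 0.70 on equal sums. Both upward counts are near the shares of all tested genes, 6.11% and 31.5%. SRPRB, a subunit of the signal recognition particle receptor, stood at 1.28, EDEM1 at 0.90, EDEM2 at -0.997 and the translocon gene SEC61B at -1.27.

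**Figure D3:**
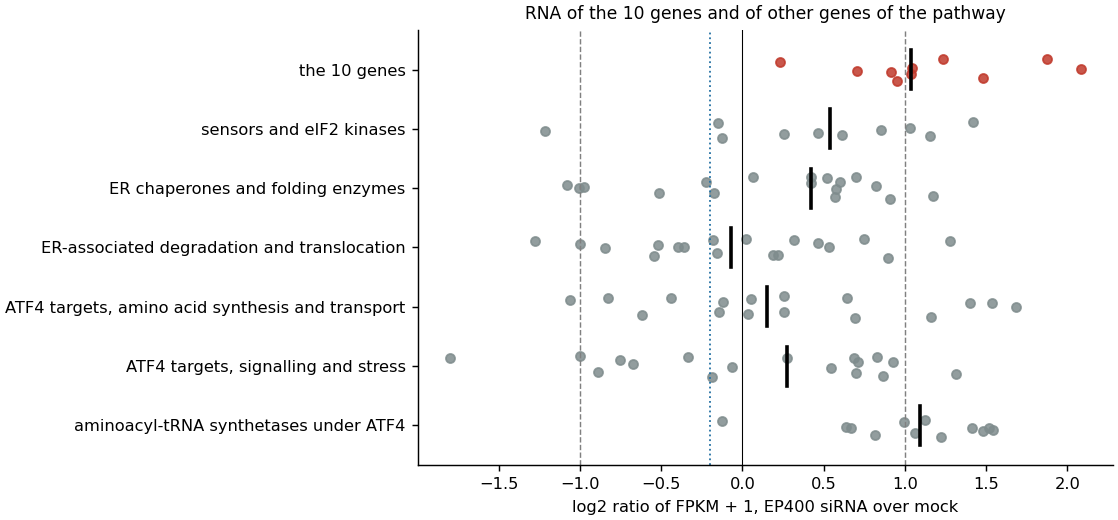
Log2 ratio of FPKM + 1 (EP400 siRNA over mock) of each tested gene, as deposited, with the 10 genes in red on top and 6 lists of other pathway genes below in grey; black bars are list medians, dashed lines mark 2-fold, and the dotted blue line is the median of all tested genes (-0.20). The 10 genes (median 1.04) and the aminoacyl-tRNA synthetases (1.09) lie furthest right.

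The gene whose pattern lay nearest to DDIT3 was sought among genes with the same presence or absence in all 11 peak lists at their ends. There were 501 such tested genes, 368 of them at a mean of 5 FPKM or more. The nearest in log2 ratio were PRNP (1.91), PNP (1.85) and TRIB1 (1.83), which share with DDIT3 only these 2 libraries and 11 lists. The pattern of DDIT3 takes in the far end of the locus it shares with MARS1. Its H2AZ peak after EP400 siRNA lay at that end alone.

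EP400 was listed at the ends of 6 of the 10 genes. A gene end here takes in 2 kb before and after the border of a locus in the RNA table, and 35.3% of all tested genes had an EP400 peak there. In the highest quintile of mean FPKM the share was 48.0%, and among the other pathway genes it was 35 of 90. ATF4 had 3 EP400 peaks, of which the widest, 400 bp, covered its start (hg19, chromosome 22, 39916451 to 39916850). TRIB3 had a peak of 300 bp (chromosome 20, 361651 to 361950), HERPUD1 one of 250 bp (chromosome 16, 56965501 to 56965750) and CHAC1 one of 200 bp (chromosome 15, 41245201 to 41245400). XBP1 had 100 bp (chromosome 22, 29195601 to 29195700) and DDIT3 50 bp (chromosome 12, 57915451 to 57915500). ATF3 had 1 peak of 50 bp within its locus, so that 7 of 10 loci held EP400, as did 48.3% of all tested genes. ASNS, HSPA5 and DNAJB9 had none. No order of RNA ratios against EP400 was drawn from these widths, since the order of the genes changed with the scaling.

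Strand in the RefSeq promoter table was used to tell which end of a locus holds the start. DNAJB9 shares its locus with THAP5, and its Pol II peaks lay inside that locus, as did those of ATF3. The MED26 peaks of DNAJB9 and ATF3 lay inside too. The border of a shared or long locus need not be the start in use. Counts at gene ends may therefore miss peaks at the starts of DNAJB9 and ATF3. At the other 8 genes Pol II was listed at the start side in both conditions. Counted over the whole locus and 2 kb around it, Pol II was listed at all 10 genes in both conditions, as it was at 86.7% of all tested genes, and MED26 likewise, as at 83.1%. At gene ends both lists of Pol II held 8 of the 10, against 80.0% of tested genes after EP400 siRNA and 85.3% after mock siRNA. For MED26 the count was also 8 in both, against 75.5% and 78.8%. A peak listed after mock siRNA alone was seen at 0 of the 10 for Pol II and for MED26, beside 6.19% and 5.73% of tested genes. RABEPK has an end within 2 kb of HSPA5, so peaks there may belong to either gene.

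Pol II peaks spanned fewer bases after EP400 siRNA at most of the 10 genes, where RNA was listed higher. At HSPA5 the listed peak spanned 500 bp after EP400 siRNA and 1100 bp after mock siRNA, at CHAC1 1200 and 1800 bp, and at ASNS 600 and 900 bp. HERPUD1 had 1400 and 1700 bp, XBP1 1000 and 1300 bp, and DNAJB9 900 and 1400 bp. At TRIB3 the peak had the same borders in both lists, 1300 bp from chromosome 20, 361401 to 362700. In all, 7 of the 8 genes with Pol II at their ends had fewer covered bases there after EP400 siRNA and 1 had as many. This is close to all tested genes with Pol II in both lists, of which 84.9% had fewer. Peak width depends on depth and enrichment, which the lists do not carry.

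At ATF4 the Pol II peak over the start was 1700 bp after EP400 siRNA and 2000 bp after mock siRNA. Beyond its other end 2 further Pol II peaks, of 1000 and 100 bp, were listed after mock siRNA alone (chromosome 22, 39919301 to 39920300 and 39920601 to 39920700). DDIT3 had 700 bp at its start after EP400 siRNA and 1400 bp after mock siRNA. A second peak upstream, 400 bp from 57915301 to 57915700 on chromosome 12, overlapped the EP400 peak and was listed after mock siRNA alone. ATF3 had its Pol II peak 42.7 kb into the locus, at 1600 bp after EP400 siRNA and 1700 bp after mock siRNA. Before it 2 peaks of 100 bp were listed after EP400 siRNA alone, which made ATF3 the gene with more Pol II bases after EP400 siRNA (1800 against 1700 bp).

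MED26 spanned 500 and 900 bp at HSPA5 after EP400 siRNA and after mock siRNA, 100 and 400 bp at ASNS, 400 and 1000 bp at ATF3, and 1000 and 1200 bp at CHAC1. XBP1 had 600 bp after EP400 siRNA and 500 bp after mock siRNA. Of the 8 genes with MED26 at their ends in both conditions, 6 had fewer bases after EP400 siRNA, 1 as many and 1 more, beside 62.6% with fewer among all tested genes with both.

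**Figure D4:**
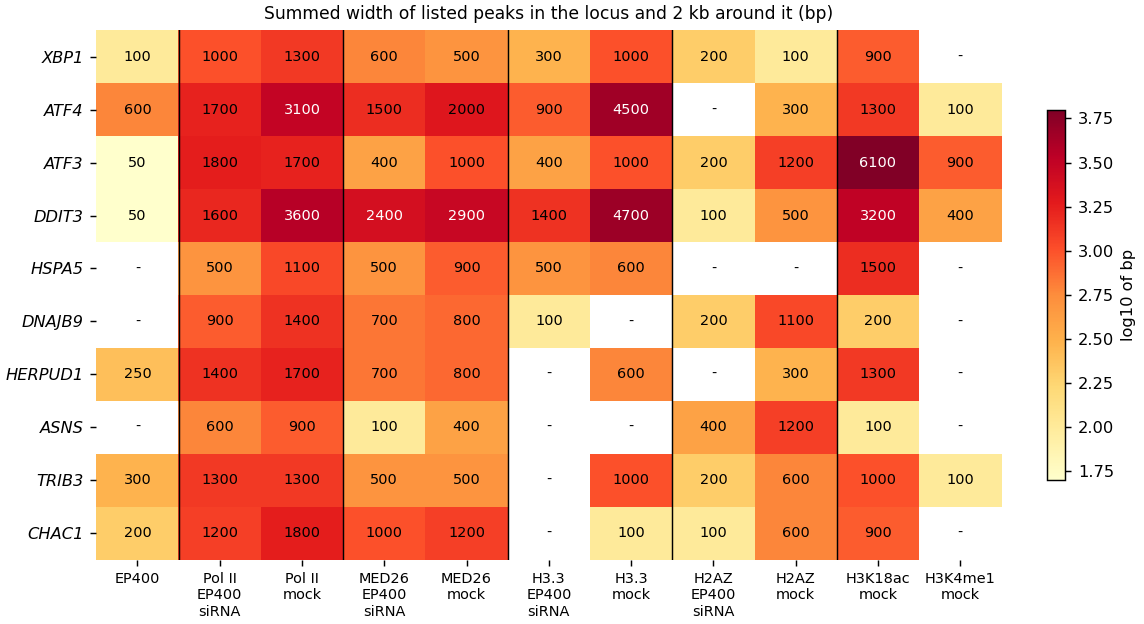
Summed width in bp of all listed peaks in each locus and 2 kb around it, for each of the 11 peak lists, with EP400 siRNA left of mock siRNA for each factor; a dash means that no peak was listed and colour is the log10 of the width. Pol II and MED26 are listed at all 10 genes in both conditions, while H3.3 is absent from 4 rows after EP400 siRNA and from 2 after mock siRNA.

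H3.3 was listed at the ends of 4 of the 10 genes after EP400 siRNA (DDIT3, HSPA5, XBP1 and ATF4) and of 8 after mock siRNA, against 34.3% and 69.1% of all tested genes. ATF3, TRIB3, CHAC1 and HERPUD1 had a peak after mock siRNA and none after EP400 siRNA, which is 4 of 10, beside 40.2% of tested genes. With the H3.3 lists brought to equal numbers by keeping the widest peaks, 2 of 10 had it after mock siRNA alone. In all, 14 H3.3 peaks were listed at the 10 loci after EP400 siRNA and 38 after mock siRNA. The whole H3.3 lists held 41439 and 79838 peaks. Of the peaks at the 10 loci, 5 and 15 lay at the locus that DDIT3 shares with MARS1. All 4 genes with H3.3 at their ends in both conditions had fewer covered bases after EP400 siRNA, beside 75.9% of such tested genes. Of the 38 mock peaks at these loci 5 overlapped a peak after EP400 siRNA. Over the whole genome, in genes and outside them, 4000 of 79838 H3.3 mock peaks (5.01%) did so.

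Start sides were also counted alone. Among the 8 genes alone in their locus, H3.3 lay within 2 kb of the start side at 1 after EP400 siRNA and at 6 after mock siRNA. At XBP1, ATF4, TRIB3, CHAC1 and HERPUD1 it was thus listed after mock siRNA alone. This is 5 of 8, beside 45.6% of the 6645 tested genes that were alone in their locus. Among those tested genes with H3.3 there after mock siRNA, 70.7% had none there after EP400 siRNA. DDIT3, which shares its locus, had H3.3 at its start side in both conditions. ATF3 had H3.3 at its other end after mock siRNA alone, and ASNS and DNAJB9 had none at their ends. HSPA5 had H3.3 at its start side in both conditions, at 400 bp after EP400 siRNA (chromosome 9, 128002701 to 128003100), with a further 100 bp, and at 100 bp after mock siRNA (128003001 to 128003100). These counts describe the listed loci only, and no difference between genes with and without EP400 was tested.

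The 400 bp of H3.3 at HERPUD1 began 999 bp into the gene, where the mock Pol II peak ended, and a further 200 bp lay upstream of the start. At TRIB3 700 bp of H3.3 lay 1528 to 2227 bp into the gene in mock cells. CHAC1 had 100 bp, from 41245001 to 41245100 on chromosome 15, 100 bp before its EP400 peak. At XBP1 300 bp of H3.3, from 29195601 to 29195900 on chromosome 22, covered the EP400 peak in mock cells. ATF4 had 4 H3.3 peaks at its start side after mock siRNA, among them 600 bp from 39915301 to 39915900 that overlapped an EP400 peak, and 0 there after EP400 siRNA. Beyond the other end of ATF4 H3.3 was listed in both conditions, at 600 and 300 bp after EP400 siRNA and at 900 and 2400 bp after mock siRNA. DDIT3 kept H3.3 upstream of its start at a site that overlapped in both lists, 300 bp wide after EP400 siRNA and 900 bp after mock siRNA. DNAJB9 had a single H3.3 peak of 100 bp after EP400 siRNA and none after mock siRNA.

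H2AZ was listed at the ends of 5 of the 10 genes after EP400 siRNA and of 8 after mock siRNA, against 55.4% and 75.1% of tested genes. ATF4, ATF3 and HERPUD1 had it after mock siRNA alone (3 of 10, beside 21.2%). Counting start sides alone gave the same 3 genes of 8, beside 22.4%. For Pol II and MED26 0 start sides had a peak after mock siRNA alone, beside 6.47% and 6.16% of the same genes. ASNS had 2 peaks of 200 bp each after EP400 siRNA, at the edges of the single peak of 1200 bp listed after mock siRNA. TRIB3 had 200 and 600 bp of H2AZ, CHAC1 100 and 600 bp, and DNAJB9 200 and 1100 bp. At DDIT3 H2AZ lay at opposite ends of the locus, with 100 bp at the far end after EP400 siRNA and 500 bp at the start side after mock siRNA. The far-end peak lay 32.8 kb from the DDIT3 start side, in the locus shared with MARS1. DDIT3 thus entered the count of 5 genes through that end alone. At its own start side H2AZ was listed after mock siRNA alone. At XBP1 the peaks did not overlap, with 200 bp upstream of the start after EP400 siRNA and 100 bp inside the gene after mock siRNA. HSPA5 had no H2AZ peak in either condition. Of the 5 genes with H2AZ at their ends in both conditions 4 had fewer bases after EP400 siRNA and XBP1 had more, beside 83.5% with fewer among all such tested genes.

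**Figure D5:**
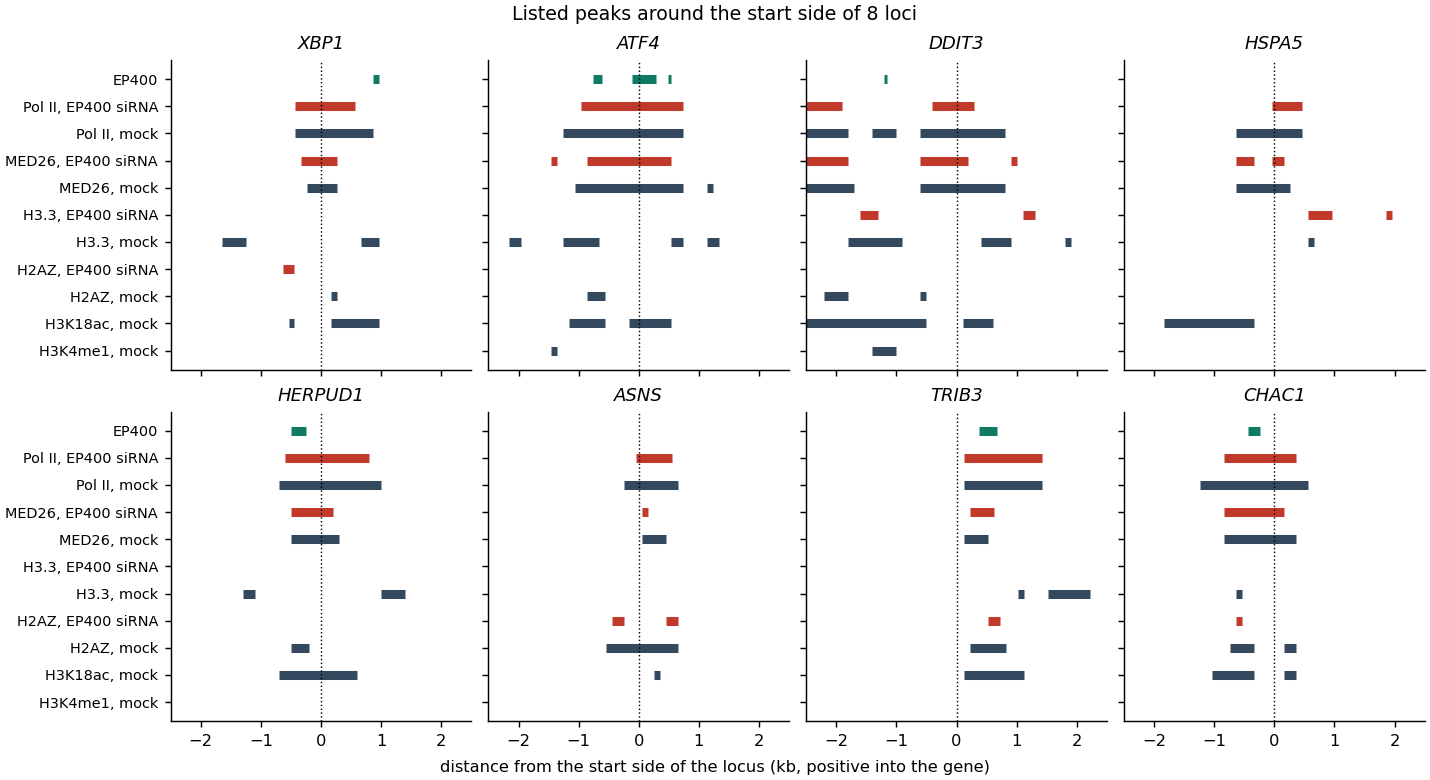
Listed peaks within 2 kb of the start side of 8 loci, by distance in kb from the locus end that holds the start (positive into the gene); green marks EP400, red EP400 siRNA and dark blue mock siRNA, and peaks reaching beyond 2.5 kb are clipped. Pol II spans or adjoins the start in both conditions at all 8, and H3.3 is listed after EP400 siRNA at DDIT3 and HSPA5.

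H3K18ac, a mark of active promoters and enhancers, was listed at the ends of 9 of the 10 genes in mock cells, beside 72.8% of tested genes, and within the locus of DNAJB9. It was widest over the locus of ATF3, with 6 peaks that summed to 6100 bp. H3K4me1, which is common at enhancers, was listed at the ends of DDIT3 and ATF4 (2 of 10, beside 30.5%). Within the locus of ATF3 it had 5 peaks that summed to 900 bp, of which 3, between 29.9 and 32.4 kb from the start side, lay within H3K18ac peaks. One of these H3K18ac peaks also held the EP400 peak. TRIB3 had 100 bp of it, and the other 6 genes had none. ATF3, whose locus of 55.4 kb was the longest of the 10, was thus the gene with EP400 and both marks away from its ends.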

How the data were processed

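The genes, lists and alternatives were chosen with earlier results of these data known. RNA levels are FPKM with lower and upper limits, deposited by the authors per transcript, per the file headers. Peaks are start and end coordinates in hg19, counted from 1 and deposited without scores, with borders on a grid of 50 bp (EP400) or 100 bp (all others). Bowtie 0.12.9, TopHat2 2.0.8 and Cuffdiff 2.0.2 were used per the submitters' processing notes. What annotation release, peak caller and control were used is not given in the sources used here, and 4 input libraries were not analysed.

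Symbols were matched by RefSeq identifier to a GRCh38.p14 table for 47551 of 48669 rows (97.7%). Rows under 200 nt were left out, FPKM and limits were added up by gene, and of 24198 genes 122 were dropped for failed estimates. A mean of 1 FPKM or more left 11671. The log2 ratio has a pseudocount of 1 and understates differences of low genes; 2-fold counted as different. Centring by gene density used 10 groups of genes by how many loci lay within 500 kb. Overlap of 1 bp counted. The peak number of a list depends on depth. Overlapping genes cannot be told apart. Named were the 10 genes, EP400, up to 4 genes of each list by size of log2 ratio, and 3 genes with the pattern of DDIT3. Motif positions come from RefSeq promoter sequences. Python 3.11.15 with pandas 2.3.3 was used, and the steps were tested on simulated data.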

Additional observations from a re-analysis of the deposited data

How the results depend on the processing

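No paired analysis was possible because each condition had 1 library, and for the same reason no library could be left out. The log2 ratios of the 10 genes kept their sign in 60 of 60 recomputed values (0.23 to 3.02). Most of these could not have changed sign. A pseudocount cannot change it, keeping short rows left these ratios as they were, and median centring and equal sums raised them. Centring by gene density alone lowered some, and there the values ran from 0.65 to 3.02. Of the recomputed values, 10 that were short of 2-fold as deposited passed it, at TRIB3, ATF3, CHAC1 and DNAJB9. Of the 10 genes 6 were at least 2-fold higher as deposited and 10 on equal sums. Of the other pathway genes 17 were higher and 7 lower, against 26 and 3 on median centring, 51 and 1 on equal sums, and 3 lower on centring by gene density. Losses of a peak after EP400 siRNA depended on the peaks kept. With the wider 50% of each list 2 genes lost H3.3, 5 lost H2AZ and 1 lost MED26, against 4, 3 and 0 with all peaks, and with equal peak numbers 2 lost H3.3. Depth is unknown for the RNA and the peak lists, so no interval from counts could be given. Fewer peaks enter under these choices. Gene ends of 1 kb or 5 kb, the whole locus, a stricter overlap, and leaving out DDIT3 and DNAJB9, which share a locus, kept each of these counts within 1.5 times. The whole locus and the last of these were chosen after seeing the data.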

Other observations

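Some pathway genes had values that entered no count of the report, and all of them are given here. The estimates of PYCR1, of proline synthesis, and CBS, of cysteine synthesis, were marked as failed. PYCR1 was listed at 169 FPKM after EP400 siRNA and 399.5 FPKM after mock siRNA, and CBS at 38.9 and 60.7 FPKM. A further 8 genes lay below a mean of 1 FPKM, of which 6 were listed higher after EP400 siRNA and 2 lower. ERN1, which codes for IRE1, stood at 1.11 FPKM after EP400 siRNA and 0.662 FPKM after mock siRNA. MBTPS2, a protease that cuts ATF6, stood at 1.18 and 0.582 FPKM, EDEM3, of ER-associated degradation, at 1.32 and 0.437 FPKM, and the ER oxidase gene ERO1B at 0.431 and 0.131 FPKM. STC2, an ATF4 target, stood at 0.409 and 0.0462 FPKM, and ERN2, a relative of ERN1, at 0.0148 and 0.00580 FPKM. FGF21, a secreted ATF4 target, stood at 0.409 and 0.756 FPKM and DERL3, of ER-associated degradation, at 0.0219 and 0.0479 FPKM, both lower after EP400 siRNA.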
